A study of Rattus norvegicus with 14 samples.

Results

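The sodium pump and FXYD subunits described here were 7 rat genes, Fxyd1, Fxyd2, Fxyd5, Fxyd6, Fxyd7, Atp1b1 and Atp1b2, of the 30562 genes in the deposited tables. They were found by their gene symbols, 1 row each, and all 7 passed the filter on low counts in every comparison. The genes were chosen by their measured differences between the sides and between the times, with earlier results of these data known, so those differences are given as descriptions and were not used as tests. The 14 RNA libraries were made from the L2 to L5 dorsal root ganglia, which hold the cell bodies of sensory neurons, of 7 male wild-type rats, 1 library a side. On the surgical side the extensor digitorum longus, a leg muscle, had been joined as a graft to the saphenous nerve, which carries sensation from the skin of the leg. The control side was the unoperated hindlimb of the same rat, which therefore shared its genotype, sex and time with the surgical side. The 4 groups were 4 surgical and 4 control libraries at 8 weeks, of rats D, C, G and H, and 3 surgical and 3 control libraries at 6 weeks, of rats A, B and E. No group had a graft to another nerve or a nerve cut without a graft, and strain and age were not given in the sources used here.

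The sodium pump, Na,K-ATPase, exports sodium and imports potassium at the expense of ATP and so sets the ion gradients on which nerve impulses depend. Each pump is built from a catalytic alpha subunit and a beta subunit, which brings the alpha subunit to the cell surface. Many pumps also carry a small single-span FXYD protein, named for a shared stretch of amino acids, which tunes the affinity of the pump for its ions. In sensory ganglia, pumps of neurons and of their satellite glia clear the sodium and potassium moved by firing. Which FXYD or beta gene is used differs between neurons, Schwann cells, glia and connective tissue, so a whole ganglion holds a mixture.

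Total estimated counts per library lay between 18489118 and 28237574, and the lowest count of any of the 7 genes in a library was 569. All 16 neuronal markers, all 7 markers of myelinating Schwann cells and all 6 of satellite glia were above 0 in every library. The libraries differed in tissue content within groups. Summed over 9 genes, skeletal muscle transcripts reached 25890 TPM in the surgical library of rat C and 4944 TPM in the control library of rat H. The surgical ganglion of rat E had 1056 TPM of them. Summed over 10 genes, spinal cord and central glia transcripts reached 957.7 TPM in rat B on its surgical side and at most 29.76 TPM in the 6-week control ganglia. Among these spinal cord genes, Opalin and Olig2 were each at 0 in 1 library. The sum of the 16 neuronal genes ran from 1936 to 17230 TPM in 6-week surgical and from 2958 to 18450 TPM in 6-week control ganglia. Fitted differences between the sides are therefore also given without rats B, C and H, a set that still holds rat E; without rat E no difference over both times changed its sign. In whole ganglia, fewer cells of a type and less RNA per cell cannot be told apart, and this applies to every difference below.

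Levels are in TPM, a share of all transcripts in a library, which allow for transcript length and so can be set side by side between genes. Over the 14 libraries Fxyd2 averaged 815 ± 476 TPM, Fxyd7 535 ± 228 TPM and Atp1b1 481 ± 248 TPM (SD, n = 14). Fxyd1 followed at 241 ± 60.4 TPM, Fxyd6 at 99.5 ± 40.9 TPM, Fxyd5 at 76.9 ± 26.7 TPM and Atp1b2 at 32.2 ± 25.8 TPM (SD, n = 14). In this order Fxyd7 and Atp1b1 differed by less than the SD of either, and so did Fxyd6 and Fxyd5. The step between Fxyd2 and Fxyd7, and that between Atp1b1 and Fxyd1, was larger than the SD of the lower gene but not than that of the higher. Fxyd6 lay below Fxyd1, and Atp1b2 below Fxyd5, by more than either SD. The coefficient of variation was 80.4% for Atp1b2, which included a single library at 119 TPM. Among the other genes it ran from 25% for Fxyd1 to 58.4% for Fxyd2.

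**Figure D1:**
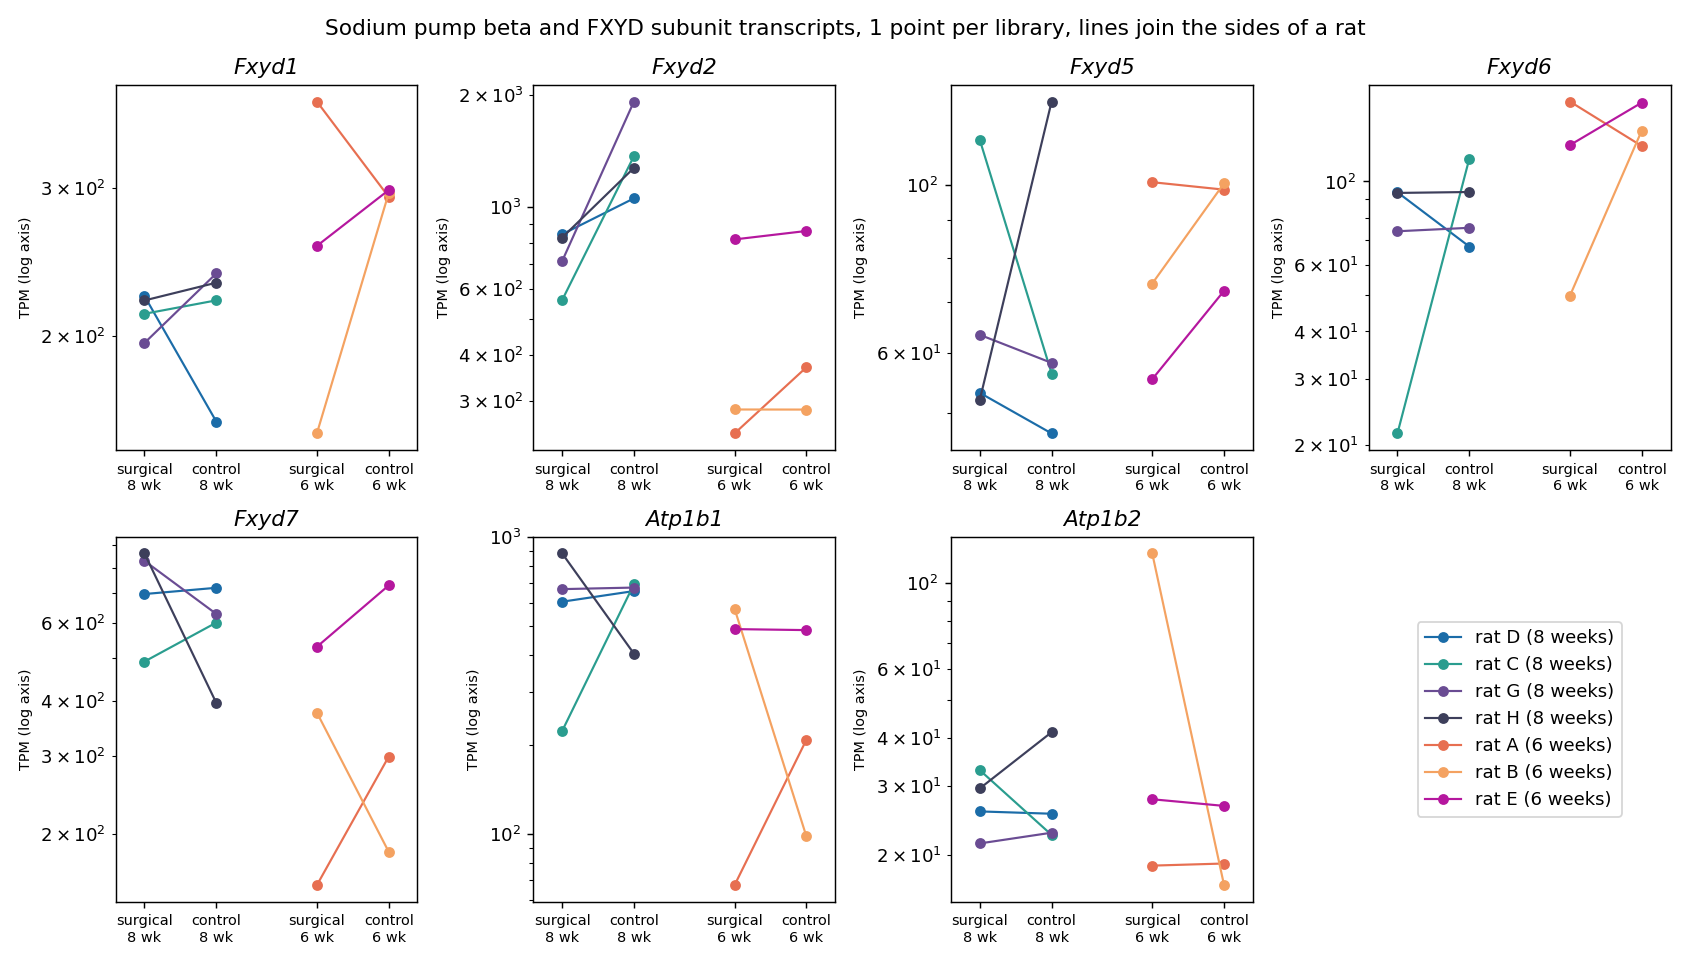
TPM (log axis) of each of the 7 genes in the 14 libraries, 1 point per library, with surgical and control libraries at 8 and at 6 weeks along the horizontal axis and a line joining the sides of a rat. Fxyd2 lines run upwards to the control side at 8 weeks in all 4 rats, and the Atp1b2 point of 119 TPM is the surgical library of rat B.

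Fxyd2, the gamma subunit of the pump, is best known from kidney tubules and in rodents also from small sensory neurons. It was lower on the surgical side in every rat once counts were scaled to library size. The fitted gap was larger at 8 than at 6 weeks, but not by more than its SE. The change in it, 8 minus 6 weeks, was a log2 difference of -0.30 (SE 0.34), and -0.05 without rat E. After a trend with transcript length was removed, the change was -0.79, so its size depended on the setting. At 8 weeks Fxyd2 had 843, 560, 713 and 825 TPM in the surgical ganglia of rats D, C, G and H, against 1052, 1366, 1915 and 1271 TPM in their control ganglia. The highest surgical value was thus below the lowest control value, and the groups at 8 weeks did not overlap, as was so for 274 of 17035 genes (1.61%) in this direction and for no other of the 7. At 6 weeks Fxyd2 had 246, 285 and 816 TPM in the surgical ganglia of rats A, B and E, against 370, 285 and 860 TPM in their control ganglia. Here the groups overlapped, and rat E was high on both sides. The sides of rat B were level in TPM, but in log2 CPM (counts scaled to library size with TMM factors) its surgical side was lower by the difference given next. TPM and CPM are scaled differently, and the part of each scaling step in this gap was not tested.

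In log2 CPM, surgical minus control, Fxyd2 differed by -0.27 in rat D, -0.98 in rat C, -1.34 in rat G and -0.75 in rat H. The 6-week rats gave -0.83 in rat A, -0.71 in rat B and -0.05 in rat E. The mean of the 7 differences was -0.70 (SD 0.43, n = 7), and rats D and E were nearest to 0. Of all genes tested, 127 of 17035, or 0.746%, were lower on the surgical side in 7 of 7 rats, and Fxyd2 was the 1 gene of the 7 among them. This pattern was known when the gene was chosen, so nothing is read from its count. The model with the rat as a block put Fxyd2 at a log2 difference of -0.70 (SE 0.17) over both times, -0.84 (SE 0.22) at 8 weeks and -0.53 (SE 0.26) at 6 weeks. Without rats B, C and H these were -0.62 (SE 0.24), -0.81 (SE 0.36) and -0.44 (SE 0.35). Without rat E they were -0.82 (SE 0.15), -0.83 (SE 0.21) and -0.78 (SE 0.29). At 6 weeks the size depended on the scale, since Fxyd2 stood at -0.15 (SE 0.34) after a trend with transcript length was removed.

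Markers of non-peptidergic nociceptors, small neurons that mostly end in skin, moved with Fxyd2. The mean log2 CPM of 6 such markers was lower on the surgical side in 5 of 7 rats, by -0.59 on average (SD 0.95, n = 7), and higher in rats B and E. Summed, these 6 markers had 78.01 to 205 TPM in surgical and 210.3 to 340.6 TPM in control ganglia at 8 weeks. At 6 weeks the sums were 15.29 to 185.1 TPM in surgical and 25.07 to 131.6 TPM in control ganglia, and none of the 6 was at 0 in a library. With the mean level of these markers as a covariate, added after the values were seen, the log2 difference of Fxyd2 was -0.52 (SE 0.16) over both times. With the 16 neuronal markers as a covariate it was -0.69 (SE 0.16). Blood markers moved the other way. Over the 14 libraries Fxyd2 had r = -0.810 with 5 markers of T, B and NK cells and r = -0.773 with 4 of red blood cells. Rats C and G, with the lowest Fxyd2 differences, had the highest surgical minus control differences of these lists in mean log2 CPM, 2.06 and 1.33 for T, B and NK cells and 3.05 and 2.03 for red blood cells. The summed red blood cell markers had 32580 to 162900 TPM in surgical and 26610 to 102700 TPM in control ganglia at 8 weeks, and 39830 to 159600 TPM in surgical and 30540 to 153400 TPM in control ganglia at 6 weeks. The sums for T, B and NK cells were 56.38 to 381.5 TPM in surgical and 44.52 to 114.7 TPM in control ganglia at 8 weeks, and 75.04 to 214.3 TPM in surgical and 45.34 to 159.3 TPM in control ganglia at 6 weeks. None of these markers was at 0 in a library, and the part of blood or nociceptor content in the Fxyd2 values was not tested beyond the covariates given. The genes whose log2 CPM ran most like that of Fxyd2 over the 14 libraries, among 9669 compared, were Gfra2, Crym and Fads3. Gfra2, the receptor for neurturin and itself 1 of the 6 markers, had a Pearson r of 0.955 over the 14 libraries, 0.944 over the 8 libraries at 8 weeks and 0.948 over the 6 at 6 weeks. Crym, which encodes a thyroid hormone-binding protein, had r = 0.951, and Fads3, of the fatty acid desaturase family, had r = 0.945 (n = 14 libraries).

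Fxyd7, a mainly neuronal FXYD subunit, was second in level and did not share the pattern of Fxyd2. At 8 weeks Fxyd7 had 697, 490, 829 and 862 TPM in the surgical ganglia of rats D, C, G and H, against 720, 601, 628 and 395 TPM in their control ganglia. The 6-week values were 153, 376 and 529 TPM in the surgical ganglia of rats A, B and E, against 299, 182 and 729 TPM in their control ganglia. Both pairs of groups overlapped. In log2 CPM the surgical side was higher in 5 of 7 rats, lower in rats A and E, and the mean difference was 0.10 (SD 0.65, n = 7). The fitted log2 difference of Fxyd7 was 0.43 (SE 0.26) at 8 weeks and -0.36 (SE 0.30) at 6 weeks, and over both times 0.10 (SE 0.23), or -0.22 (SE 0.26) without rats B, C and H. The change in that difference, 8 minus 6 weeks, was 0.80 (SE 0.40), the highest of the 7 genes in this fit. Without rats B, C and H, which leaves rats A and E at 6 weeks and D and G at 8 weeks, it was 1.03 (SE 0.28). After a trend with transcript length was removed, the change was 0.35, and the 6-week difference between the sides was 0.01.

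Because Fxyd2 and Fxyd7 come from the same libraries, their ratio is free of the total to which a library is scaled. Fxyd2 over Fxyd7 in TPM was 1.209, 1.143, 0.8605 and 0.9573 in the 8-week surgical ganglia of rats D, C, G and H, against 1.462, 2.275, 3.048 and 3.214 in their control ganglia. The 8-week groups did not overlap, and the ratio was lower on the surgical side in each of these 4 rats. Fxyd2 alone did not overlap at 8 weeks either and was chosen with this known. The ratio and the shares below are therefore not separate results, and other gene pairs were not counted. Ratios at 6 weeks were 1.608, 0.7584 and 1.542 in the surgical ganglia of rats A, B and E, against 1.238, 1.566 and 1.18 in their control ganglia. Rats A and E there had the higher ratio on the surgical side and rat B the lower. Over the summed TPM of the 5 FXYD genes, Fxyd2 made up 38% to 44.1% in 8-week surgical and 51.5% to 65.7% in 8-week control ganglia. The corresponding range for Fxyd7 was 35% to 44.2% in 8-week surgical and 18.6% to 35.2% in 8-week control ganglia. At 6 weeks the Fxyd2 share was 23.6% to 45.8% in surgical and 28.5% to 40.5% in control ganglia.

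**Figure D2:**
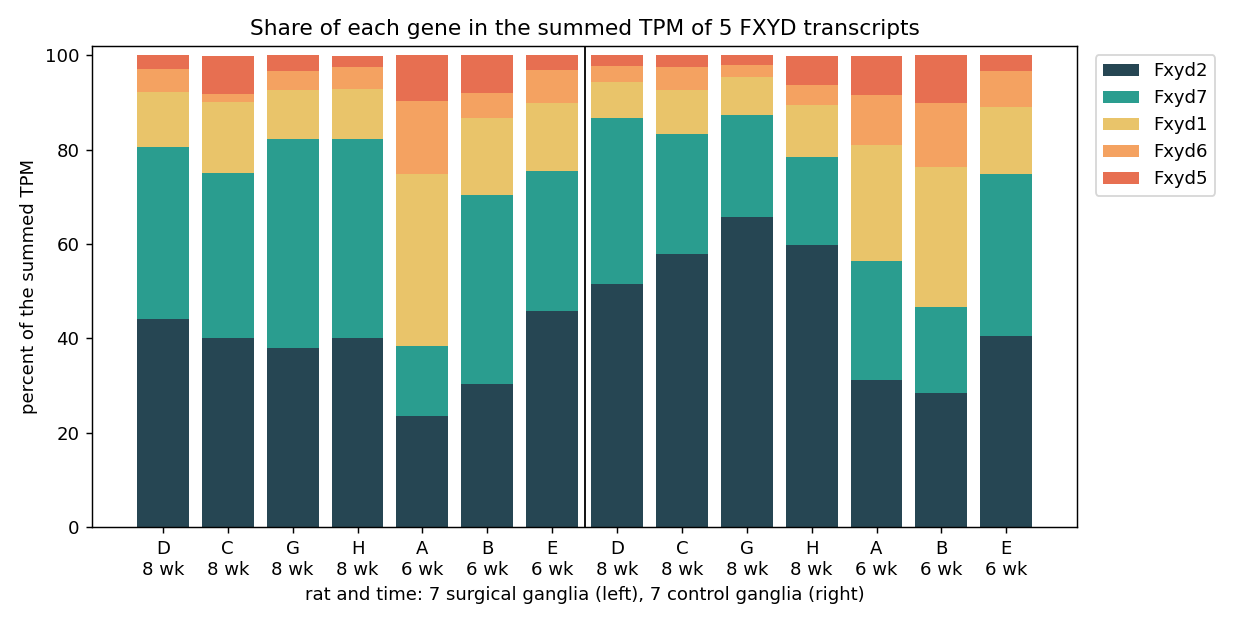
Percent of the summed TPM of Fxyd1, Fxyd2, Fxyd5, Fxyd6 and Fxyd7 taken by each gene, with 1 bar for each library, 7 surgical on the left and 7 control on the right of the line. Fxyd2, the lowest block, takes 51.5% to 65.7% in the 8-week control bars and 38% to 44.1% in the 8-week surgical bars.

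Over the 14 libraries the log2 CPM of Fxyd7 ran closest to Plk3, a protein kinase (r = 0.948), Ppp1r3d, a phosphatase subunit that targets glycogen (r = 0.948), and Ackr1, an atypical chemokine receptor (r = 0.943). Its r with the mean of 7 markers of myelinated mechanoreceptors and proprioceptors was 0.921, against 0.515 for Fxyd2 with the same markers (n = 14 libraries). Fxyd2 had its highest r, 0.886, with the non-peptidergic markers, which include Gfra2. Between Fxyd7 and Fxyd2 themselves r was 0.464. All these libraries differ in depth and in neuronal content, which their correlations share, and the values are descriptions.

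Fxyd1, or phospholemman, is the FXYD subunit of heart and skeletal muscle on which protein kinases act. At 8 weeks Fxyd1 had 223, 213, 196 and 220 TPM in the surgical ganglia of rats D, C, G and H, against 158, 221, 237 and 232 TPM in their control ganglia. At 6 weeks it had 381, 153 and 256 TPM in the surgical ganglia of rats A, B and E, against 293, 296 and 299 TPM in their control ganglia. Both comparisons of the sides overlapped, and the 3 control values at 6 weeks were close together. In the control ganglia every 8-week value of Fxyd1 lay below every 6-week value, as was so for 413 of 16346 genes (2.53%). The sides differed by a log2 difference of -0.11 (SE 0.25) over both times, or 0.13 (SE 0.18) without rats B, C and H. At 6 weeks that difference was -0.47 (SE 0.38), and 0.09 (SE 0.28) without rat B, whose surgical side was lower by 1.59 in log2 CPM.

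Skeletal muscle also expresses Fxyd1. The surgical library of rat C, with the most muscle transcripts, had 213 TPM of it, within the range of the other 8-week surgical ganglia, but 6.40 in log2 CPM, the highest of the 8-week libraries. The r of Fxyd1 with the 9 muscle markers was 0.612 over the 8 libraries at 8 weeks and 0.090 over all 14. Over all 14 it was 0.844 with 6 fibroblast markers and -0.818 with the 16 neuronal markers. The genes most like it in log2 CPM were Crispld2, a secreted protein (r = 0.971), Vit, a protein of the extracellular matrix (r = 0.964), and Clic1, of the chloride intracellular channel family (r = 0.963).

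Fxyd6, or phosphohippolin, is an FXYD subunit first known from brain. At 8 weeks Fxyd6 had 93.6, 21.5, 73.8 and 93.2 TPM in the surgical ganglia of rats D, C, G and H, against 67.2, 115, 75.3 and 93.8 TPM in their control ganglia. Among the 6-week rats it had 163, 49.7 and 125 TPM in the surgical ganglia of rats A, B and E, against 124, 136 and 162 TPM in their control ganglia. The surgical ganglia of rats C and B were the lowest of their groups, and the sides overlapped at both times. The log2 difference between the sides over both times was -0.48 (SE 0.37), and 0.17 (SE 0.19) without rats B, C and H, so its sign rested on those rats. In the control ganglia every 8-week value of Fxyd6 lay below every 6-week value, as was so for 413 of 16346 genes (2.53%).

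Markers of myelinating Schwann cells moved with Fxyd6. Their mean log2 CPM differed between the sides, surgical minus control, by -1.71 in rat C and -0.84 in rat B, the 2 rats in which Fxyd6 fell furthest below its control, by 1.96 and 2.07 on the log2 scale. Over the 14 libraries r between Fxyd6 and the 7 Schwann markers, which include Ncmap, was 0.924. Summed, those 7 markers had 1457 to 7163 TPM in 8-week surgical and 3819 to 7792 TPM in 8-week control ganglia. At 6 weeks the sums were 5933 to 11700 TPM in surgical and 7744 to 8813 TPM in control ganglia, and their part in the Fxyd6 values was not tested. The genes closest to Fxyd6 were Ncmap, a myelin protein (r = 0.988), Cntf, the ciliary neurotrophic factor (r = 0.985), and Lims2, an adaptor of cell adhesion (r = 0.985).

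Fxyd5, or dysadherin, is an FXYD subunit that also bears on adhesion between cells. At 8 weeks Fxyd5 had 53.1, 115, 63.4 and 52.0 TPM in the surgical ganglia of rats D, C, G and H, against 46.9, 56.3, 58.2 and 129 TPM in their control ganglia. The 2 high values, rat C surgical and rat H control, were the 2 libraries with the most muscle transcripts. In the 6-week rats it had 101, 74.1 and 55.4 TPM in the surgical ganglia of rats A, B and E, against 98.6, 101 and 72.5 TPM in their control ganglia. The sides overlapped at both times, and the log2 difference over both was -0.13 (SE 0.33), or 0.04 (SE 0.15) without rats B, C and H. Fxyd5 had r = 0.939 with 6 macrophage markers, 0.876 with the fibroblast markers and 0.451 with the muscle markers (n = 14 libraries). Over the 8 libraries at 8 weeks its r was 0.966 with the muscle markers and 0.913 with the macrophage markers. The genes most like it were Ctdsp1, a phosphatase (r = 0.976), C1qb, a chain of complement C1q (r = 0.973), and Eef1a1, a translation elongation factor (r = 0.972).

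Fxyd1, Fxyd5 and Fxyd6 had the 3 lowest log2 differences between 8 and 6 weeks in control ganglia, and their promoters are shown for that reason. They were taken from the RefSeq table of the GRCr8 build, as 250 bases before to 50 bases after the annotated start, read 5′ to 3′ on the strand of the gene. The windows are chr1:95418531-95418830 on the minus strand for Fxyd1, chr1:95404673-95404972 on the minus strand for Fxyd5 and chr8:54575575-54575874 on the plus strand for Fxyd6. Capitals mark each E-box, CANNTG, and each GC box, GGGCGG on either strand; no marked motifs overlapped.
Fxyd1: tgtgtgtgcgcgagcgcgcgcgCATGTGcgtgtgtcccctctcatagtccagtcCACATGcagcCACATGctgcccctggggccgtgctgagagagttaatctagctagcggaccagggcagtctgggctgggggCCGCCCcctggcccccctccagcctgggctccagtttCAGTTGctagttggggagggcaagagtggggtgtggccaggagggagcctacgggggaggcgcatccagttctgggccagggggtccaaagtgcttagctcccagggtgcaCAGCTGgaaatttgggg
Fxyd5: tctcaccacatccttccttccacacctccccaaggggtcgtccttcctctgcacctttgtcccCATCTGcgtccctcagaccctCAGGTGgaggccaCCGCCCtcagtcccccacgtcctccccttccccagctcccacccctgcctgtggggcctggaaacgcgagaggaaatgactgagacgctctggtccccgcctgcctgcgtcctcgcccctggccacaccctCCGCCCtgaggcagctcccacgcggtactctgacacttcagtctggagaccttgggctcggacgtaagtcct
Fxyd6: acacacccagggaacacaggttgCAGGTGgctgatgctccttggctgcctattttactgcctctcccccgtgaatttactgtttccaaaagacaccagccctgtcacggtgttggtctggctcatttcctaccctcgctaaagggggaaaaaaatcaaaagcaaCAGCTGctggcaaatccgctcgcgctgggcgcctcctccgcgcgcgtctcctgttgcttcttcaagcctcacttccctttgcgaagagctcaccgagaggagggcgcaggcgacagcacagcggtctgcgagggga
The Fxyd1 window held 5 E-boxes and 1 GC box, the Fxyd5 window 2 of each, and the Fxyd6 window 2 E-boxes and 0 GC boxes. A second annotated start of Fxyd5, chr1:95404325-95404624, had neither motif in its window. Of 33469 promoter windows of this length in the table, 72.1% held an E-box and 33.1% a GC box, so both motifs are common and their presence is a description. In the order of genes on GRCr8, Fxyd5, Fxyd7 and Fxyd1 are next to each other, and so are Fxyd6 and Fxyd2, with 0 protein-coding genes between neighbours. Over the 14 libraries r between neighbours was -0.720 for Fxyd5 and Fxyd7, -0.645 for Fxyd7 and Fxyd1 and -0.114 for Fxyd6 and Fxyd2.

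Atp1b1 encodes the commonest beta subunit, which carries the pump to the membrane. It had the widest span of the 7 genes, with a highest value 13.1 times its lowest. At 8 weeks Atp1b1 had 605, 222, 667 and 881 TPM in the surgical ganglia of rats D, C, G and H, against 657, 693, 675 and 405 TPM in their control ganglia. The 6-week values of Atp1b1 were 67.4, 574 and 490 TPM in the surgical ganglia of rats A, B and E, against 208, 98.3 and 486 TPM in their control ganglia. The sides overlapped at both times and the rats went opposite ways. In log2 CPM the surgical side was higher in rat B by 1.95 and in rat H by 0.97, and it fell by 1.57 in rat A and by 1.14 in rat C relative to control. The mean of the 7 differences of Atp1b1 was 0.03 (SD 1.19, n = 7), and without rats B, C and H the fitted difference over both times was -0.39 (SE 0.31). That set still holds rat A, while its rats E, D and G were at -0.08, -0.04 and 0.08 in log2 CPM. The r of Atp1b1 with the muscle markers was -0.925 over the 8 libraries at 8 weeks and -0.287 over all 14.

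The 16 neuronal markers moved with Atp1b1 in the same rats. Their mean log2 CPM, surgical minus control, was 1.21 in rat B and 0.65 in rat H, and -1.79 in rat A and -0.92 in rat C. Over the 14 libraries r between Atp1b1 and these markers was 0.949, with 0.968 over the 8 libraries at 8 weeks and 0.941 over the 6 at 6 weeks. With the markers as a covariate, the log2 difference of Atp1b1 between the sides was 0.21 (SE 0.12) over both times, against 0.01 (SE 0.41) without. The genes most like Atp1b1 were Tspyl4 (r = 0.994), Bcat1, a transaminase of branched-chain amino acids (r = 0.994), and Scn1a, a voltage-gated sodium channel of neurons (r = 0.993). Among the 7 genes themselves, Atp1b1 ran with Fxyd7 (r = 0.820) and against Fxyd1 (r = -0.881) and Fxyd5 (r = -0.864).

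Atp1b2 encodes a beta subunit also known as the adhesion molecule on glia, and it was the lowest of the 7 genes. At 8 weeks Atp1b2 had 25.9, 33.0, 21.4 and 29.6 TPM in the surgical ganglia of rats D, C, G and H, against 25.5, 22.5, 22.8 and 41.3 TPM in their control ganglia. At 6 weeks it had 18.8, 119 and 27.8 TPM in the surgical ganglia of rats A, B and E, against 19.0, 16.7 and 26.7 TPM in their control ganglia. Apart from the surgical library of rat B, all values lay between 16.7 and 41.3 TPM, and the sides overlapped at both times. The log2 difference between the sides over both times was 0.37 (SE 0.31), and 0.04 (SE 0.08) without rats B, C and H. Spinal cord and central glia markers were high in the same library of rat B, as given above, and their r with Atp1b2 was 0.957 over the 6 libraries at 6 weeks and 0.001 over the 8 at 8 weeks. The highest 8-week values of Atp1b2, rat C surgical and rat H control, came from the most muscle-rich libraries, and its r with the muscle markers was 0.881 over the 8 libraries at 8 weeks. Their part in the Atp1b2 values was not tested. The gene most like Atp1b2 was Aqp4, the water channel of astrocytes and 1 of the spinal cord markers, with r = 0.933. Enpp2, or autotaxin (r = 0.892), and Chpt1, an enzyme of phosphatidylcholine synthesis (r = 0.886), followed. Aqp4 stood at 8.60 log2 CPM for rat B surgical, against -0.78 to 1.81 elsewhere. Atp1b2 was far from its other values there too, so the r of Aqp4 leans on 1 library, and r without it was not tested. Among the 8 libraries at 8 weeks, which exclude rat B, r was 0.727 for Aqp4, 0.501 for Enpp2 and 0.843 for Chpt1.

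**Figure D3:**
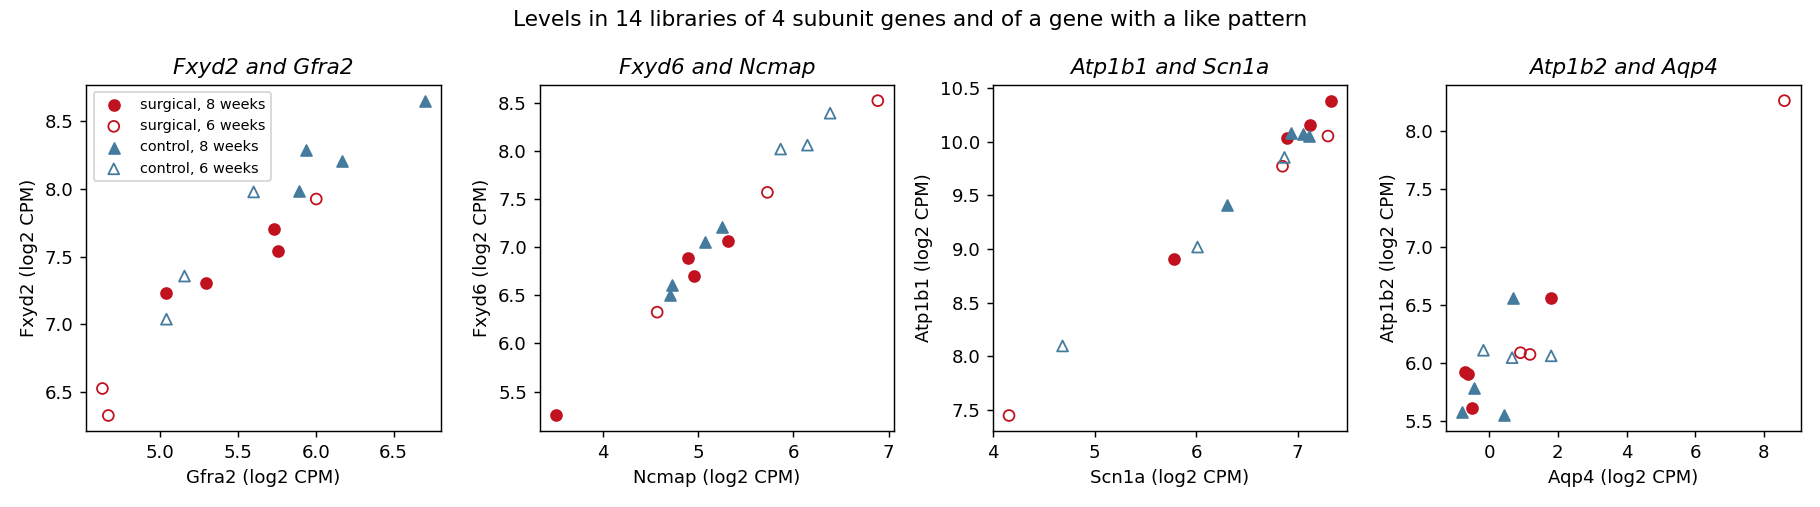
Log2 CPM of Fxyd2, Fxyd6, Atp1b1 and Atp1b2 (vertical axes) against Gfra2, Ncmap, Scn1a and Aqp4 (horizontal axes) in the 14 libraries, with red circles for surgical and blue triangles for control ganglia, filled at 8 weeks and open at 6 weeks. The first 3 pairs run along a line over all libraries, with r of 0.955, 0.988 and 0.993, whereas the Atp1b2 panel has 1 point far from the rest, the surgical library of rat B.

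Set side by side in log2 CPM, the sides differed in 1 direction in all 7 rats for Fxyd2 alone of the 7 genes. In log2 CPM 127 of 17035 genes (0.746%) were lower on the surgical side in 7 of 7 rats. In TPM the sides of rat B were level for Fxyd2. Over both times, the edgeR quasi-likelihood test with the rat as a block passed 0 of 17035 genes at an adjusted p under 0.05 (0% of genes), and so 0 of the 7. At an unadjusted edgeR p under 0.05 there were 412 genes (2.42%), DESeq2 passed 6 genes and limma on log2 TPM 0. At 8 weeks the edgeR test again passed 0 genes (0%), with 180 (1.06%) at an unadjusted p under 0.05 and 4 passed by DESeq2. At 6 weeks it passed 0 genes (0%), with 546 (3.21%) at an unadjusted p under 0.05 and 44 passed by DESeq2. For the difference between the 8-week and 6-week effects it passed 0 genes (0%), with 252 (1.48%) at an unadjusted p under 0.05 and 5 passed by DESeq2. In these 3 comparisons limma also passed 0 genes, and none of the 7 genes was among those that DESeq2 passed. The median log2 difference of the 7 genes was -0.11 over both times, against 0 for all genes tested.

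**Figure D4:**
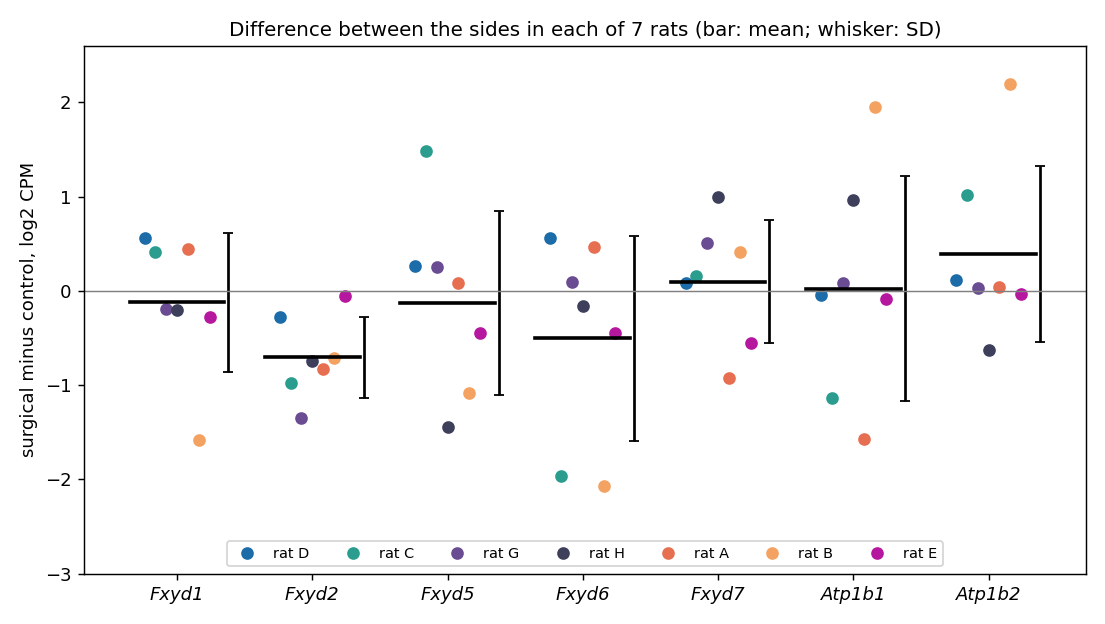
Surgical minus control difference in log2 CPM of the 7 genes in each rat (points), with the mean as a bar and the SD as a whisker (n = 7 rats). Fxyd2 is the gene with all 7 points below 0, between -1.34 and -0.05, while points of every other gene lie on both sides of 0.

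Between 8 and 6 weeks, in different rats, the control ganglia had lower Fxyd1, Fxyd5 and Fxyd6 and higher Fxyd2 and Atp1b1 in the fitted values. The log2 differences, 8 minus 6 weeks, were -1.30 (SE 0.22) for Fxyd6, -1.10 (SE 0.21) for Fxyd1 and -0.97 (SE 0.43) for Fxyd5. They were 0.78 (SE 0.27) for Fxyd2, 0.76 (SE 0.40) for Atp1b1, 0.04 (SE 0.34) for Fxyd7 and -0.15 (SE 0.26) for Atp1b2. The edgeR test passed 25 of 16346 genes (0.153%), 3 higher and 22 lower at 8 weeks, and 0 of the 7. DESeq2 passed 3133 of 16249 genes, among them Fxyd1, Fxyd2 and Fxyd6, and with so many genes passed nothing is read from these 3. Without rats B, C and H the edgeR test passed 0 genes, and the differences were -1.49 (SE 0.20) for Fxyd6, -1.06 (SE 0.28) for Fxyd1 and 0.65 (SE 0.36) for Fxyd2. In TPM, 413 genes (2.53%) had every 8-week control value below every 6-week control value, and these held Fxyd1 and Fxyd6. The opposite held for 5911 genes (36.2%), which included Fxyd2 with 1052 to 1915 TPM at 8 weeks and 285 to 860 TPM at 6 weeks.

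The fitted time differences changed with the scale and with a covariate for neuronal content, and the cause was not tested. On log2(TPM + 1) the median of all genes in control ganglia stood 0.45 higher at 8 weeks, against -0.06 in the fitted counts, and these genes shifted with it, to -0.50 (SE 0.19) for Fxyd1 and 1.60 (SE 0.40) for Fxyd2. In control ganglia the summed neuronal markers had 13770 to 26580 TPM at 8 weeks and 2958 to 18450 TPM at 6 weeks. With the neuronal markers as a covariate, the differences in control ganglia were -1.04 (SE 0.23) for Fxyd6, -0.73 (SE 0.19) for Fxyd1 and -0.10 (SE 0.40) for Fxyd5. For Fxyd2 it was then 0.34 (SE 0.21), for Atp1b1 -0.09 (SE 0.11) and for Fxyd7 -0.66 (SE 0.17), so the signs of Atp1b1 and Fxyd7 changed, as did that of Atp1b2, at 0.04 (SE 0.33). Transcripts of Fxyd1, Fxyd2, Fxyd5 and Fxyd7 are short, at percentiles 3.33, 2.51, 6.05 and 3.26 of the length of all genes. In the 6-week control ganglia the rank correlation between relative level and transcript length was -0.182, -0.221 and -0.182 across genes, and it was -0.025 to 0.133 in the 8-week control ganglia. With that trend removed, Fxyd1 stood at -0.54 (SE 0.17) and Fxyd2 at 1.45 (SE 0.34).

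On the surgical side the edgeR test of 8 against 6 weeks passed 0 of 16606 genes (0%), with 1089 (6.56%) at an unadjusted p under 0.05. DESeq2 passed 8 and limma on log2(TPM + 1) 3, none of them among the 7. The log2 difference, 8 minus 6 weeks, was -1.16 (SE 0.57) for Atp1b2, -1.11 (SE 0.58) for Fxyd6, -0.67 (SE 0.41) for Fxyd1 and -0.39 (SE 0.48) for Fxyd5. It was 0.84 (SE 0.31) for Fxyd7, 0.51 (SE 0.63) for Atp1b1 and 0.34 (SE 0.41) for Fxyd2. Without rat B the value of Atp1b2 was -0.14 (SE 0.28), and without rat E, which was high on both sides, that of Fxyd2 was 1.06 (SE 0.24). Without rats B, C and H the values were -0.32 (SE 0.26) for Atp1b2, 0.13 (SE 0.57) for Fxyd2, -1.07 (SE 0.48) for Fxyd1 and -0.89 (SE 0.53) for Fxyd5, with the signs as before. With the neuronal markers as a covariate the signs of Fxyd1, Fxyd2, Fxyd5 and Atp1b1 turned, to 0.02 (SE 0.32) for Fxyd1, -0.06 (SE 0.37) for Fxyd2, 0.41 (SE 0.29) for Fxyd5 and -0.50 (SE 0.34) for Atp1b1. Without rat E the difference of Fxyd2 was 1.06. In TPM, 345 genes (2.08%) were lower and 1192 genes (7.18%) were higher at 8 weeks without overlap on the surgical side, and none of the 7 was in either set.

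**Figure D5:**
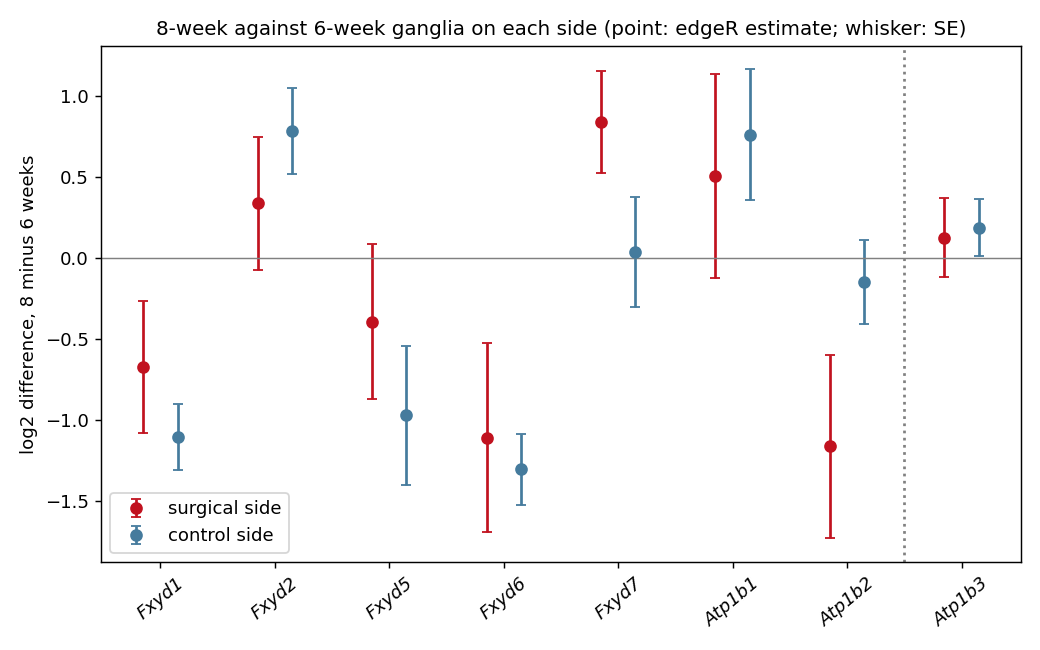
Log2 difference, 8 minus 6 weeks, from edgeR with its SE (whiskers) on the surgical side (red) and the control side (blue), for the 7 genes and, right of the dotted line, for Atp1b3. Fxyd6 lies lowest among the control values, at -1.30, and Fxyd1, Fxyd5 and Fxyd6 are below 0 on both sides.

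Atp1b3, another beta subunit of the pump, was measured in the same libraries and averaged 281 ± 93.2 TPM (SD, n = 14). At 8 weeks Atp1b3 had 300, 173, 294 and 337 TPM in the surgical ganglia of rats D, C, G and H, against 311, 454, 387 and 374 TPM in their control ganglia. The 6-week values of Atp1b3 were 142, 198 and 297 TPM in the surgical ganglia of rats A, B and E, against 191, 173 and 307 TPM in their control ganglia. In log2 CPM it was lower on the surgical side in every rat but D. Its log2 difference over both times was -0.34 (SE 0.14), which did not pass after adjustment (edgeR adjusted p = 1).

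A list of 12 further genes of the pump and its relatives had 11 in the tables, Fxyd3 was not analysed here, and 5 passed the filter on low counts. Those 5 were Atp1b3 and Nkain1, Nkain2, Nkain3 and Nkain4, named for interaction with the pump. The 6 that were not tested, Atp1a4, Atp1b4, Fxyd4, Atp12a, Atp4a and Atp4b, averaged 0.0266 to 0.0851 TPM. In each of the 6 comparisons 0 of the 5 passed the edgeR test in either direction. Over both times 4 of the 5 had a negative fitted difference between the sides, with a median log2 difference of -0.15, against 0 for all genes. Nkain4 was lowest, at -0.54 (SE 0.23), with an edgeR adjusted p of 1. Between the times in control ganglia the median of the 5 was 0.20, against -0.06 for all genes, and Nkain4 was again lowest at -0.75 (SE 0.24, edgeR adjusted p = 0.12).

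A list of 19 genes that use or adjoin the sodium gradient held exchangers and cotransporters, calcium pumps and the kinases Sgk1 and Prkcz, and all 19 were tested. These were Slc8a1, Slc8a2, Slc8a3, Slc12a2, Slc12a4, Slc12a5, Slc12a7, Slc4a4, Slc1a2, Slc1a3, Slc24a2, Slc24a3, Atp2b1, Atp2b2, Atp2b3, Atp2b4, Sgk1, Prkcz and Kcnj10. In each of the 6 comparisons 0 of the 19 passed the edgeR test in either direction. Over both times 9 of the 19 had a positive and 10 a negative difference between the sides, with a median log2 difference of -0.02. Slc12a5, the neuronal potassium chloride cotransporter, and Slc1a2, a glial glutamate transporter, had 30.9 and 30.6 TPM on the surgical side of rat B, and below 1 TPM in every other library. In control ganglia 13 of the 19 were higher in the fitted values at 8 weeks, with a median of 0.37, against 46.5% of all genes and a median of -0.06. The 16 neuronal markers summed to 13770 to 26580 TPM in control ganglia at 8 weeks and to 2958 to 18450 TPM at 6 weeks, and their part was not tested. Slc24a3, a sodium, potassium and calcium exchanger, was at 1.10 (SE 0.19, edgeR adjusted p = 0.0785) and Sgk1, a kinase that acts on sodium transport, at -1.02 (SE 0.28, edgeR adjusted p = 0.101).

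Summed by class, Atp1b1, Atp1b2 and Atp1b3 gave 428.4 to 1247 TPM in 8-week surgical and 820.6 to 1170 TPM in 8-week control ganglia. Of this beta sum, Atp1b1 made up 51.9% to 70.6% in 8-week surgical and 49.3% to 66.1% in 8-week control ganglia. The sum of the 5 FXYD genes was 1399 to 2053 TPM in 8-week surgical and 2045 to 2915 TPM in 8-week control ganglia. In rats D, C, G and H the FXYD sum was 1910, 1399, 1875 and 2053 TPM on the surgical side against 2045, 2359, 2915 and 2120 TPM on the control side. It was therefore lower on the surgical side in all 4 of these rats, most in rats C and G, the rats with the largest within-rat fall of Fxyd2. Fxyd2 made up 38% to 65.7% of these sums and was chosen with its fall known, so this is not a separate result. On log2(TPM + 1), 33% of all genes had a positive fitted difference between the sides at 8 weeks. The FXYD sum at 6 weeks was 1043, 938 and 1782 TPM in the surgical ganglia of rats A, B and E, against 1185, 1000 and 2122 TPM in their control ganglia.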

How the data were processed

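RNA was sequenced from the control and surgical ganglia of 7 rats, 14 libraries in all. Per the submitters' processing notes, reads passed FastQC and Trim Galore, Salmon quantified them, and DESeq2 was used; versions and the genome build were not given in the sources used here. The authors deposited an estimated count per gene, stored as whole numbers, and TPM from the same quantification. The labels name polyA RNA as the molecule but ribosomal depletion as the library method. Library names exchange the letters C and D relative to the titles, which leaves the pairs intact; title letters were used, and the surgical library of rat C, titled replicate 1, was used as replicate 2.

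Tests on the estimated counts used edgeR 4.0.16 (R 4.3.3; filterByExpr, minimum count 10; TMM; robust quasi-likelihood). The sides were compared with the rat as a block over 14 libraries, since both libraries of a number come from 1 animal, which left 6 residual degrees of freedom with the times pooled and 5 by time. The times were compared between rats of a side, with 5. P values were two-sided with Benjamini-Hochberg adjustment over all genes tested, at 0.05. The SE is the log2 difference divided by the square root of F. Log2 CPM had a prior count of 2, and the level of a marker list is the mean log2 CPM of its genes. All 7 genes and the listed genes of at least 1 TPM were named, except for some listed genes, which are not reported here and were left out of the counts, with the 3 genes of highest r for each among those of at least 5 TPM. The members, lists and tests were chosen with earlier results of these data known. The p values of the side tests rest on how the within-rat difference varied between rats, and those of the time tests on the spread between rats of a side. Each side of a rat had 1 library, so spread from dissection or library preparation cannot be told apart from these.

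Other settings tried were DESeq2 1.42.0, edgeR with the size factors of DESeq2, no filter, a mean of at least 1 CPM, limma 3.58.1 on log2 of TPM plus 1 or plus 0.1 (mean of at least 0.5 TPM, or no filter), and removal of a lowess trend with transcript length (span 0.3; length from the count to TPM ratio, at least 20 counts in 3 libraries). Others were the neuronal covariate, each rat left out, rats B, C and H left out, no block, and libraries of 1 time. The non-peptidergic covariate was added after the values were seen. The scripts were tested on simulated data. A promoter was in the RefSeq table for 4 of the 7 genes.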

Additional observations from a re-analysis of the deposited data

Results flagged for a closer look

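A value far from the others of its group was looked for in the 8-week groups and in the 7 within-rat differences of each gene, by the gap to the nearest other value as a share of the range. It was found in 3 of 21 groups checked, and chance gives about 1 in 20. The within-rat difference of Fxyd1 in rat B, surgical minus control, was -1.586 in log2 CPM, against -0.278 to 0.557 in the other rats. In the 8-week control ganglia, Fxyd5 in rat H was at 6.017 log2 CPM, against 4.514 to 4.759 in the other rats, and Atp1b1 in rat H was at 9.412 log2 CPM, against 10.052 to 10.075. The control library of rat H had high skeletal muscle transcripts and the surgical library of rat B high spinal cord transcripts; their part in these values was not tested.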

How the results depend on the processing

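The rats number 7, with 3 at 6 weeks. Each of the 7 genes had at least 569 counts in every library, and the part of depth in the number of genes passed was not tested. The number of genes passed between the sides stayed at 0 when any rat was left out. DESeq2 passed 6 genes over both times, 44 at 6 weeks, 4 at 8 weeks and 5 for the difference between them, none of them 1 of the 7. Without the block that pairs the sides of a rat, 2 genes passed at 6 weeks, and Fxyd2 stood at -0.65 (SE 0.25) over both times; no other side comparison changed its count. Between the times on the surgical side DESeq2 passed 8 genes, and limma 3 on log2(TPM + 1), 4 on log2(TPM + 0.1) and 4 without a filter. Between the times on the control side, where edgeR passed 25, DESeq2 passed 3133 of 16249 genes, with Fxyd1, Fxyd2 and Fxyd6. There limma passed 8, 14 and 8 in the same order, and 9 passed after removal of the length trend. Leaving out 1 rat gave 0 to 6388 genes there, with 0 without A, B, C, D or G and 1 without H. Without E, 6388 of 16676 genes passed, of which Fxyd1, Fxyd2, Fxyd6 and Atp1b1 were 4. Without rats B, C and H 0 passed. The causes were not tested. Fxyd2 kept its sign between the sides over both times in 19 of 19 alternatives, from -0.82 without rat E to -0.52 with the non-peptidergic covariate. Atp1b2 kept its sign in 19 of 19, Fxyd6 in 18, Fxyd1 and Fxyd7 in 17, Fxyd5 in 16 and Atp1b1 in 15. In control ganglia between the times Fxyd1, Fxyd2, Fxyd5 and Fxyd6 kept their sign in 17 of 17, with -1.19 to -0.50 for Fxyd1, 0.34 to 1.61 for Fxyd2, -1.45 to -0.10 for Fxyd5 and -1.49 to -0.70 for Fxyd6.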
